A study of Mus musculus with 7 samples.

Results

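The Gadd45 genes of the mouse, Gadd45a, Gadd45b and Gadd45g, were examined by RNA sequencing in the T-cells of ORP4L knock-in (KI) and wild-type (WT) mice. These are 3 of the 25033 genes listed in each library, found by their symbols, and the family was chosen from these data because Gadd45a was higher in most ORP4L KI libraries. For that reason the ORP4L KI and WT values of the family are given as a description, with no test. T-cells of 4 ORP4L KI mice and 3 WT littermates were sequenced, with 1 library per mouse, and all mice were C57BL/6J and 15 months of age. ORP4L KI mice carry the coding sequence of human ORP4L, a sterol- and phosphoinositide-binding protein, in the Rosa26 locus behind a stop cassette flanked by loxP sites. The stop is removed by Cre driven from the Lck promoter, which is active in T-cells. The study describes the ORP4L KI mice of these libraries as moribund and the WT littermates as of the same age, so genotype and health cannot be told apart. The methods describe T-cells taken from peripheral blood mononuclear cells or splenocytes with a naive CD4+ kit and cultured with IL-2 and PHA. It is not stated which source each library had, or whether the sequenced cells had been cultured.

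GADD45 proteins are small acidic nuclear proteins that are induced by DNA damage and by other stresses, and they act by binding other proteins. They bind and activate MAP3K4, a kinase upstream of p38 and JNK, and they bind PCNA, p21 and the CDK1 and cyclin B1 complex. GADD45A was found as a gene induced by growth arrest and DNA damage, and it is a target of p53, of FOXO3 and of ATF4. In T-cells, GADD45B and GADD45G are known for their part in p38 activation and interferon gamma production after IL-12 and IL-18. GADD45A is known there as a brake on a p38 route that is activated directly behind the T-cell receptor.

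In the mouse genome GRCm38, the same assembly as the mm10 build named in the submitters' processing notes, GENCODE places Gadd45a on chromosome 6 from 67035096 to 67037457 on the minus strand. Gadd45b lies on chromosome 10 from 80930073 to 80932204 and Gadd45g on chromosome 13 from 51846678 to 51848468, both on the plus strand. Each gene has 4 exons in its principal transcript. The DNA just before each start is shown because the 3 genes had different patterns over the libraries. The sequences are RefSeq's for GRCm38.p6, 5′ to 3′ along the gene, and capitals mark the motifs found. The windows searched were the 250 bases before the RefSeq start, and the bases that GENCODE already counts as transcript (50 for Gadd45a and 18 for Gadd45b) are left off the print. The printed regions are chr6:67037458-67037657 for Gadd45a, chr10:80929841-80930072 for Gadd45b and chr13:51846425-51846674 for Gadd45g.
Gadd45a: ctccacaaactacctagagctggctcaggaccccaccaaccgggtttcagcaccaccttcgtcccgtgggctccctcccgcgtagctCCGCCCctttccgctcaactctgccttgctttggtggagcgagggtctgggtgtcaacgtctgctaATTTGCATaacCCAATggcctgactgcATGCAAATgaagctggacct
Gadd45b: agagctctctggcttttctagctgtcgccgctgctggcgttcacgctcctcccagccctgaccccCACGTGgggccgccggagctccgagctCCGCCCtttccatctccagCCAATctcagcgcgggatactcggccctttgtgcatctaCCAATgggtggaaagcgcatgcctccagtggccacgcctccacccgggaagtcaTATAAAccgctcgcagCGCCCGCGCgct
Gadd45g: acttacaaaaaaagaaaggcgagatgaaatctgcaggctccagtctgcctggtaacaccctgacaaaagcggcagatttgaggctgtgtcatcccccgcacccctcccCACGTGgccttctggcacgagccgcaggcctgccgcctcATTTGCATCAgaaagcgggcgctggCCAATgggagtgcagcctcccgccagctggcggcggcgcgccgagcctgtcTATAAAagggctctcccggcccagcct

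All 3 promoters were GC-rich, with 59.2% GC in Gadd45a, 65.2% in Gadd45b and 62.0% in Gadd45g, against a median of 52.4% over 32851 promoters of the same length. On both strands, CCAAT, the box bound by NF-Y, occurred 1 time in Gadd45a, 2 times in Gadd45b and 1 time in Gadd45g, and 33.8% of all promoters held it. The GC box GGGCGG (in 32.7% of promoters) was in Gadd45a and Gadd45b. The TATA box TATAAA (in 12.4%) was in Gadd45b and Gadd45g, as was the E-box CACGTG (in 6.02%). The EGR motif GCGNGGGCG (in 4.7%) was in Gadd45b, and the composite motif TGATGNAA of C/EBP and ATF factors (in 3.45%) was in Gadd45g. The octamer ATTTGCAT, the motif of POU2F1, was added to the search after the sequences had been read. It was present 2 times in Gadd45a, once on each strand, and 1 time in Gadd45g, where it overlaps the TGATGNAA match, and 1.6% of all promoters held it. The letters TGANTCA (in 6.75% of promoters), TGACGTCA (in 1.55%), GTAAACA (in 3.17%) and GGGNNTTCC (in 4.98%) were in none of these 3 windows.

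The libraries held between 12918187 and 19665679 counts, and 13462 genes passed the filter on low counts, all 3 Gadd45 genes among them. Levels are given in CPM, the counts scaled by TMM to a common library size. ORP4L is encoded by Osbp2 in the mouse, and the counts assigned to this gene were 0, 0 and 1 in WT and 188, 742, 155 and 443 in ORP4L KI. Its ORP4L KI mean was at least 105-fold higher than the WT floor of 3 counts per library. The knock-in sequence is human and the reads were mapped to mouse sequences. Whether the Osbp2 counts come from the knock-in or from the mouse gene was not tested. Of the 15 granulocyte marker genes listed, 14 were called higher in ORP4L KI by the p and fold rule given below, against 2.38% of all tested genes. At an adjusted p under 0.05, 0 of the 15 passed in edgeR and 14 in DESeq2, against 0.0223% and 5.12% of all genes. The median log2 fold change of the 15 was 4.29. Their summed share of all counts was 0.535%, 0.466% and 0.195% in WT and 12.2%, 1.13%, 3.07% and 4.92% in ORP4L KI, and none of the 15 was at 0 counts in any library. The 10 T-cell markers took between 0.108% and 0.414% of the counts, lowest in ORP4L KI replicate 1, and were detected in every library. By edgeR, 0 of these 10 were called or had an unadjusted p under 0.05, and DESeq2 called 0. With the granulocyte score described below as covariate, 3 of the 10 were called higher, against 766 of all tested genes. The median log2 fold change of the 10 was then 1.11, against 0.133 without it. In a bulk sample, fewer cells of a type and less RNA per cell cannot be told apart.

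Gadd45a was highest in 3 of the 4 ORP4L KI libraries. Its level was 108.9, 175.4 and 84.0 CPM in WT replicates 1, 2 and 3, and 552.1, 115.7, 328.8 and 547.5 CPM in ORP4L KI replicates 1, 2, 3 and 4. ORP4L KI replicates 1, 3 and 4 lay above every WT library, while ORP4L KI replicate 2 lay within the WT range, so the groups overlapped. The mean was 123 ± 47.2 CPM (SD, n = 3) in WT and 386 ± 208 CPM (SD, n = 4) in ORP4L KI. The fitted log2 fold change was 1.65 ± 0.51 (SE), a difference of 3.14-fold in means. Within ORP4L KI the highest library was 4.77 times the lowest. As background, 16.8% of all tested genes were higher than every WT library in at least 3 ORP4L KI libraries, and 7.7% had a wider span within ORP4L KI. By deposited RPKM, Gadd45a ranked 816, 547 and 920 among all genes in the WT libraries and 228, 692, 291 and 211 in the ORP4L KI libraries.

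Gadd45b, a gene induced by NF-κB and by TGF-β signalling, did not share this pattern. It stood at 315.0, 399.8 and 236.2 CPM in WT and at 195.2, 211.8, 309.1 and 373.6 CPM in ORP4L KI. ORP4L KI replicates 1 and 2 were below every WT library, the other two were within the WT range, and none was above it. The means were 317 ± 81.8 CPM (SD, n = 3) and 272 ± 84.1 CPM (SD, n = 4), with a log2 fold change of -0.22 ± 0.29 (SE). Of all 7 libraries, ORP4L KI replicate 1 had the least Gadd45b, while its Gadd45a, with that of ORP4L KI replicate 4, was among the 2 highest.

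Gadd45g, a cytokine-inducible member, was the least abundant of the family. Its level was 66.59, 112.5 and 47.13 CPM in WT and 108.5, 42.23, 88.45 and 164.5 CPM in ORP4L KI. ORP4L KI replicate 4 lay above and ORP4L KI replicate 2 below every WT library, and the other two were in between. The means were 75.4 ± 33.6 CPM (SD, n = 3) and 100.9 ± 50.7 CPM (SD, n = 4), and the log2 fold change was 0.42 ± 0.44 (SE).

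**Figure D1:**
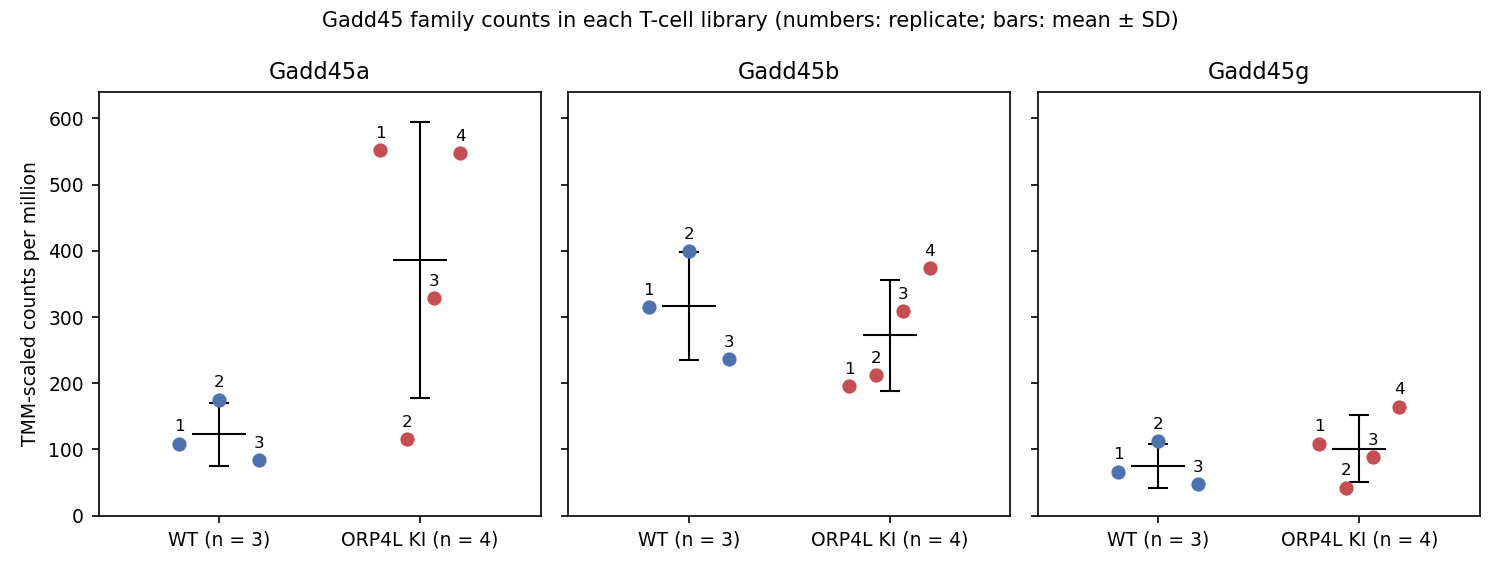
TMM-scaled CPM of Gadd45a, Gadd45b and Gadd45g (vertical axis) in the 3 WT and 4 ORP4L KI libraries, with points numbered by replicate and bars for the mean ± SD. For Gadd45a, ORP4L KI replicates 1, 3 and 4 lie between 328.8 and 552.1 CPM and replicate 2 lies at 115.7 CPM among the WT points, while the groups overlap for the other two genes.

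The order of the members was compared per transcript length, using the deposited RPKM. Gadd45b was above Gadd45g in 7 of 7 libraries, with a mean log2 ratio of 1.56 ± 0.583 (SD), or 2.96-fold. The two-sided exact sign-flip permutation test gave p = 0.01562, the smallest 7 libraries allow. Adjusted over 3 pairs this p was 0.02344, but the adjustment draws on both pairs with Gadd45a. The order of Gadd45b and Gadd45g was not used to choose the family. Both pairs with Gadd45a contain the ORP4L KI levels by which the family was chosen, so they are described and no p is given for them. Gadd45a was above Gadd45g in 7 of 7 libraries, by a mean log2 ratio of 1.19 ± 0.661 (SD). For Gadd45b over Gadd45a the mean log2 ratio over all libraries was 0.37 ± 1.16 (SD), and Gadd45b was higher in 4 of 7. That spread includes the difference between the groups, since the ratio was 2.2 to 2.8 in WT and 0.342 to 1.77 in ORP4L KI. In WT libraries the order was Gadd45b, Gadd45a, Gadd45g each time.

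The shares of the members in the family's RPKM are built from the Gadd45a values by which the family was chosen, and the share of Gadd45b falls by arithmetic as that of Gadd45a grows, so they are given as a description. Gadd45a made up 22.3%, 25.4% and 23.0% of the summed RPKM of the 3 genes in WT, and 63.9%, 31.4%, 45.2% and 50.0% in ORP4L KI. All 4 ORP4L KI libraries were above all WT libraries, including ORP4L KI replicate 2, whose Gadd45a level was in the WT range. The mean share was 23.6% ± 1.66 (SD, n = 3) in WT and 47.6% ± 13.4 (SD, n = 4) in ORP4L KI. The share of Gadd45b was 62.3%, 56.1% and 62.4% in WT and 21.8%, 55.6%, 41.1% and 33.0% in ORP4L KI, lower in every ORP4L KI library. The lowest WT share of Gadd45b, 56.1%, and the highest ORP4L KI share, 55.6% in replicate 2, lay close together. The share of Gadd45g stayed between 13.0% and 18.5% in all libraries, and the groups overlapped.

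The ratio of Gadd45a to Gadd45b RPKM, which does not depend on how libraries are scaled, was 0.358, 0.454 and 0.368 in WT and 2.93, 0.565, 1.1 and 1.52 in ORP4L KI. Gadd45a was therefore the more abundant of the pair in ORP4L KI replicates 1, 3 and 4 and the less abundant in the other 4 libraries. The ratio of Gadd45a to Gadd45g was 1.44, 1.38 and 1.57 in WT and 4.49, 2.42, 3.28 and 2.94 in ORP4L KI, again with no overlap. Both ratios carry the Gadd45a values by which the family was chosen. The ratio of Gadd45b to Gadd45g ranged from 3.03 to 4.28 in WT and from 1.53 to 4.28 in ORP4L KI, with overlap. The summed RPKM of the family was 431.9, 562.1 and 329.0 in WT and 588.4, 327.4, 591.9 and 822.9 in ORP4L KI, with 3 ORP4L KI libraries over the highest WT value. The annotated transcripts of these genes share little sequence: the longest identical stretch was 13 bases between Gadd45a and Gadd45b, 17 between Gadd45a and Gadd45g and 14 between Gadd45b and Gadd45g, and the authors discarded reads under 17 bases.

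**Figure D2:**
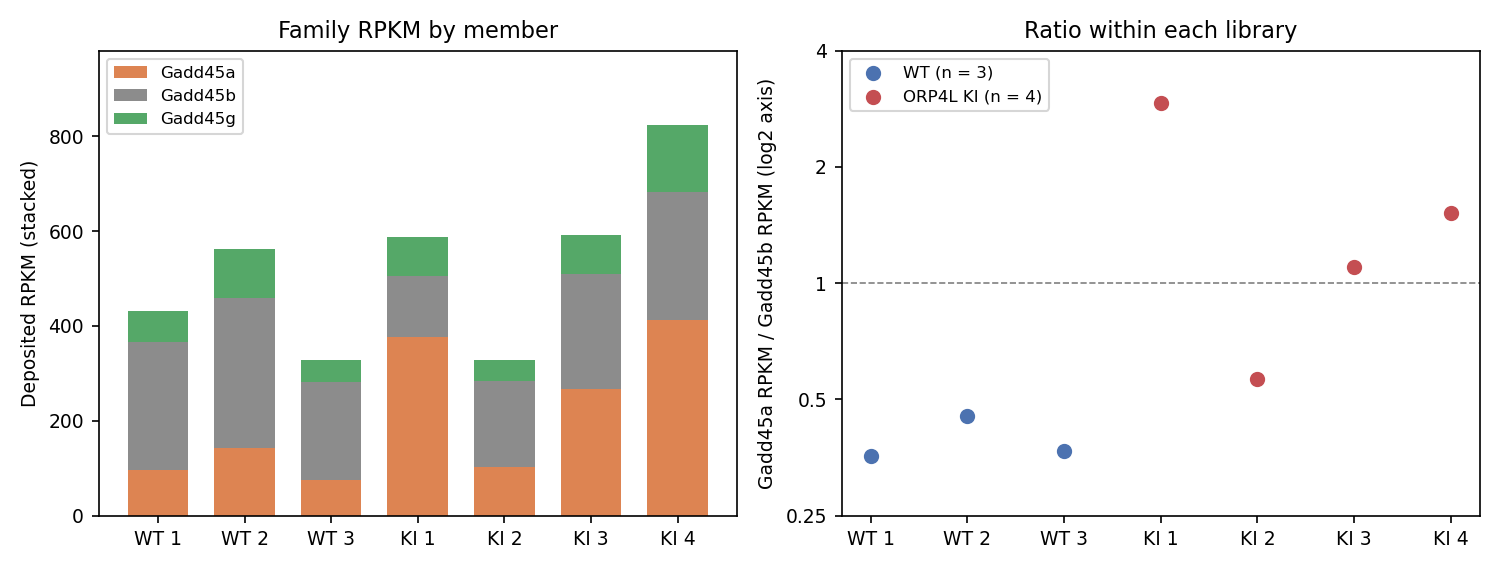
Left, deposited RPKM of the 3 Gadd45 genes stacked for each library; right, the ratio of Gadd45a to Gadd45b RPKM in the same libraries on a log2 axis, with the dashed line at 1. The WT ratios lie between 0.358 and 0.454 and the ORP4L KI ratios between 0.565 and 2.93.

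Within ORP4L KI, the granulocyte markers stood in nearly the same order as Gadd45a. In WT the orders differed: Gadd45a was highest in replicate 2, at 175.4 CPM, and the granulocyte share in replicate 1, at 0.535%. By the granulocyte share of counts, the ORP4L KI libraries stood in the order replicate 1, 4, 3 and 2 from high to low. By Gadd45a, replicates 1 and 4 were the highest, replicate 3 came next and replicate 2 was the lowest. Replicate 1 was ahead of replicate 4 in CPM, at 552.1 and 547.5, but behind it as a share of counts, at 0.0461% and 0.0504%, and in RPKM, at 376.1 and 411.4. ORP4L KI replicate 2, with Gadd45a in the WT range, had a granulocyte share of 1.13%, against 0.195% to 0.535% in WT and 3.07% to 12.2% in the other ORP4L KI libraries. Osbp2 was highest in ORP4L KI replicate 2, at 40.64 CPM against 11.44, 8.902 and 27.56 CPM in replicates 1, 3 and 4. So was the T-cell marker share, at 0.414% against 0.108%, 0.261% and 0.258%. Whether either is linked to Gadd45a was not tested. With a granulocyte score as covariate, the fitted log2 fold change of Gadd45a was -0.65 ± 0.724 (SE), that of Gadd45g -1.17 ± 0.778 (SE) and that of Gadd45b -0.36 ± 0.569 (SE). That score itself separated the groups, from 5.098 to 6.808 in WT and from 7.973 to 11.38 in ORP4L KI, so the part of granulocyte RNA and the part of genotype in the Gadd45a difference cannot be told apart in these libraries. By the ratio of Gadd45a to Gadd45b the order in ORP4L KI was replicate 1, 4, 3 and 2. The sex-linked genes Xist and Ddx3y also split the libraries, with Xist above Ddx3y in WT replicate 1 and ORP4L KI replicates 1 and 2. Among the 4 libraries with Ddx3y above Xist, Gadd45a was at 84.0 and 175.4 CPM in WT and at 328.8 and 547.5 CPM in ORP4L KI. Among the other 3 it was at 108.9 CPM in WT and at 552.1 and 115.7 CPM in ORP4L KI.

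**Figure D3:**
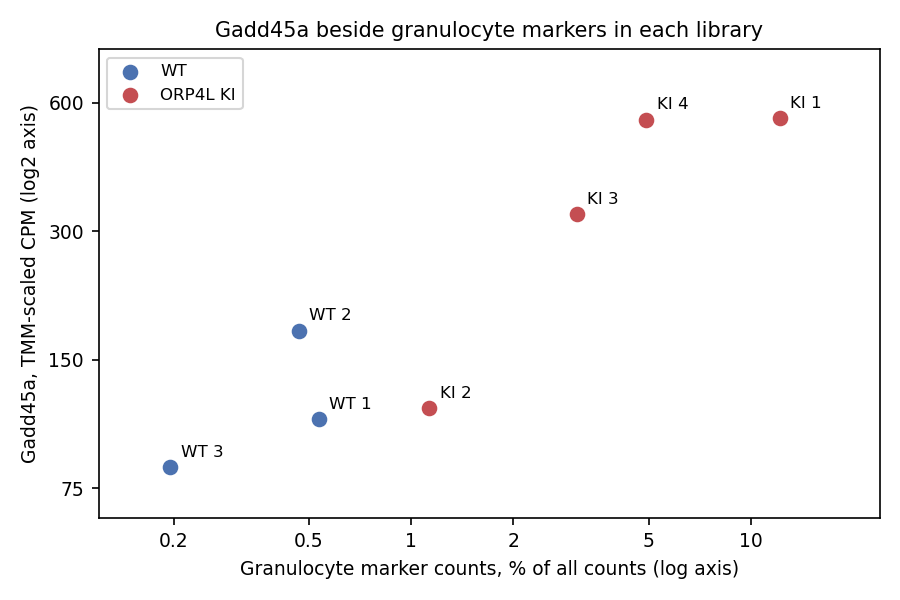
Gadd45a in TMM-scaled CPM (vertical, log2 axis) against the summed share of 15 granulocyte marker genes in all counts (horizontal, log axis), 1 point per library. ORP4L KI replicates 1, 3 and 4 lie at 3.07% to 12.2% and 328.8 to 552.1 CPM, and ORP4L KI replicate 2 at 1.13% and 115.7 CPM.

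The genes around the family were grouped by role into 7 lists of 78 genes in all, of which 77 were tested. The call rule was a log2 fold change over 1 in size with an unadjusted p under 0.01 in edgeR's quasi-likelihood test. A second rule asked for an adjusted p (Benjamini-Hochberg) under 0.05. Of the 77, 3 were called higher (3.9%), against 320 of all 13462 tested genes (2.38%), and 0 were called lower, against 310 (2.3%). With scaling by total counts alone, the calls over all genes split into 275 higher and 407 lower, and the log2 fold change of all genes moved by a median of -0.143. At an unadjusted p under 0.05 in edgeR, 9 of the 77 were higher and 3 were lower, against 922 (6.85%) and 923 (6.86%) of all genes. DESeq2, run on all genes, called 6 of 78 listed genes higher and 0 lower, against 528 (2.85%) and 381 (2.06%) of 18501 genes. No listed gene passed the adjusted threshold in edgeR, which 3 of all genes passed (0.0223%). In DESeq2, 763 of 14897 genes passed it (5.12%), and with them the listed genes Asns, Aurka, Cdk1, Mapk13, Mdm2 and Perp. The median log2 fold change was 0.072 over the 77 genes and 0.013 over all genes. The groups did not overlap for 14 of the 77 (18.2%), against 13.8% of all genes. The count of 3 became 1 without WT replicate 1 or without WT replicate 3, and 6 without ORP4L KI replicate 2. With the granulocyte score as covariate, an alternative added for these lists after the data were seen, 6 of the 77 were called higher and 1 lower, against 766 and 683 of all genes, and Mapk13, Perp and Asns were not among them.

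Of the 14 upstream factors, the transcription factors known to act on Gadd45 genes, 0 were called by edgeR or DESeq2, 1 had an unadjusted p under 0.05, and the median log2 fold change was -0.095. With the granulocyte covariate 2 were called higher, against 766 of all 13462 tested genes, and the median was 0.246. Atf4, the effector of the integrated stress response, was at 586, 658 and 563 CPM in WT and at 796, 566, 888 and 1150 CPM in ORP4L KI (log2 fold change 0.50 ± 0.262, SE). Egr1, an immediate-early factor, had a log2 fold change of 0.22 ± 0.235 (SE), and Nfkb1, an NF-κB subunit, one of -0.20 ± 0.239 (SE), which became 0.45 with the granulocyte covariate. Foxo3, singled out after its values were seen, was the factor with an unadjusted p under 0.05. It stood at 31.9, 39.4 and 48.3 CPM in WT and at 14.9, 26.8, 29.3 and 24.6 CPM in ORP4L KI. All ORP4L KI libraries were below all WT libraries for Foxo3, but the change did not pass (log2 fold change -0.74 ± 0.26, SE; edgeR adjusted p = 0.237), and it was 0.26 with the granulocyte covariate. Trp53, the gene of p53, had a log2 fold change of -0.12 ± 0.178 (SE).

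Of the 12 binding partners of GADD45 proteins, 0 were called by edgeR, 4 had a higher level at an unadjusted p under 0.05 (6.85% of all genes), and 3 were called higher by DESeq2 (2.85% of all genes). The median log2 fold change was 0.199, and -0.117 with the granulocyte covariate. The most abundant were Npm1, a nucleolar chaperone (log2 fold change 0.12 ± 0.192, SE), Pcna, the replication clamp (0.56 ± 0.208, SE), and Mapk14, the p38α kinase (-0.17 ± 0.175, SE). Npm1 turned to -0.023 with total counts alone, and Pcna to -0.040 with the granulocyte covariate. Pcna stood at 263, 258 and 214 CPM in WT and at 426, 298, 327 and 390 CPM in ORP4L KI. Pcna, Cdk1, Ccnb1, Aurka and Tdg were higher in all 4 ORP4L KI libraries than in any WT library, a pattern held in either direction by 13.8% of all genes, and these 5 are named after their values were seen. Cdk1, the mitotic kinase, was at 16.8, 11.8 and 5.69 CPM in WT and at 102, 18.4, 23.1 and 31.2 CPM in ORP4L KI (log2 fold change 1.93 ± 0.635, SE; edgeR adjusted p = 0.199, DESeq2 adjusted p = 0.0225). Its cyclin, Ccnb1, and the mitotic kinase Aurka were likewise far higher in ORP4L KI replicate 1, at 44.9 and 34.9 CPM, than in the other ORP4L KI libraries, at 14.1 to 15.4 CPM and 13.5 to 16.9 CPM. Cdk1, Ccnb1 and Aurka also belong to the list of 12 proliferation markers, whose median log2 fold change was 1.21. Of these 12, edgeR called 2 higher (2.38% of all genes), and 11 were higher at an unadjusted p under 0.05 (6.85% of all genes). The count of 2 rested on the fit, with 9 in DESeq2, 7 with no filter, 10 with the replicate block, 9 without ORP4L KI replicate 2, 3 without ORP4L KI replicate 3, 1 with upper-quartile scaling or the sex-linked covariate, and 0 with total counts alone or without WT replicate 2, WT replicate 3 or ORP4L KI replicate 1. With the granulocyte covariate 0 of the 12 were called higher and 1 lower, against 766 and 683 of all genes, and the median was -0.705. Cdk1, Ccnb1 and Aurka were then at -1.04, -0.49 and -0.35. Map3k4, the kinase that GADD45 proteins activate, had a log2 fold change of 0.038 ± 0.289 (SE), and the groups overlapped.

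Of the 10 p38 and JNK kinases, Mapk13 was called higher and 0 were called lower by edgeR or DESeq2. Mapk13 encodes p38δ, and it stood at 6.83, 13.6 and 4.71 CPM in WT and at 194, 16.2, 48.4 and 77.7 CPM in ORP4L KI. The order of the ORP4L KI libraries was replicate 1, 4, 3 and 2, as for the granulocyte share, and replicate 2 was only just above the highest WT library. The log2 fold change was 3.32 ± 0.786 (SE), with an adjusted p of 0.0976 in edgeR and of 5.65e-05 in DESeq2. Mapk13 lost its call without WT replicate 1 or WT replicate 3, and with the granulocyte covariate, where its log2 fold change was -0.61 ± 0.687 (SE). Among the 15 tested of 16 other p53 targets, Perp, a p53-induced membrane protein, was called higher and 0 were called lower. It was low in every library, at 2.67, 1.26 and 1.47 CPM in WT and at 7.91, 8.11, 5.4 and 8.15 CPM in ORP4L KI, with no overlap. The log2 fold change of Perp was 2.03 ± 0.354 (SE) with an adjusted p of 0.0603 in edgeR and of 5.15e-06 in DESeq2. It was 1.69 ± 0.573 (SE) with the granulocyte covariate, where Perp was no longer called. Unlike Gadd45a, Perp was as high in ORP4L KI replicate 2 as in replicates 1 and 4. Mdm2, the p53 ubiquitin ligase, named after its values were seen, was at 79.1, 88.5 and 109 CPM in WT and at 174, 152, 137 and 159 CPM in ORP4L KI. Its log2 fold change of 0.75 ± 0.193 (SE) was below the fold threshold, and the adjusted p was 0.117 in edgeR and 0.0101 in DESeq2. Cdkn1a, the gene of p21, had a log2 fold change of 0.46 ± 0.302 (SE), with overlap, and -0.19 with the granulocyte covariate. Eda2r was below the filter on low counts. The median of this list was 0.072. With the granulocyte covariate it was 0.284, and 2 genes of the list were called higher, against 766 of all genes.

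Of the 10 genes of the integrated stress response, Asns, the asparagine synthetase, was called higher and 0 were called lower. Its level was 11.9, 10.8 and 5.13 CPM in WT and 55.5, 14.1, 22.7 and 21.5 CPM in ORP4L KI, and the log2 fold change was 1.62 ± 0.49 (SE; edgeR adjusted p = 0.17, DESeq2 adjusted p = 0.02). The call of Asns was lost without any one of WT replicates 1, 2 and 3 or ORP4L KI replicates 1, 3 and 4, and with either covariate. The log2 fold change was 1.505 ± 0.477 (SE) with the sex-linked covariate and -0.62 ± 0.392 (SE) with the granulocyte covariate. Ddit3, the gene of CHOP, and Ppp1r15a, also known as Gadd34 and no relative of the Gadd45 genes, had log2 fold changes of 0.48 ± 0.36 (SE) and -0.15 ± 0.331 (SE). The median of the list was 0.20. Of the 7 genes of the IL-12 and interferon gamma axis, 0 were called or had an unadjusted p under 0.05 in edgeR, and DESeq2 called 0. With the granulocyte covariate the list median was 1.03 and 1 of the 7 was called. Then 5 of these genes were higher at an unadjusted p under 0.05 in edgeR, against 3519 of all genes in either direction. The most abundant were Il18rap and Stat4, parts of the IL-18 receptor and of IL-12 signalling, with log2 fold changes of 0.15 ± 0.223 (SE) and 0.20 ± 0.255 (SE), and Ifng. Ifng, the gene of interferon gamma, was at 65.6, 59.9 and 68.0 CPM in WT and at 48.3, 133, 122 and 112 CPM in ORP4L KI (log2 fold change 0.69 ± 0.319, SE; edgeR adjusted p = 0.387), and with the granulocyte covariate it was called, at 1.82 ± 0.418 (SE; edgeR adjusted p = 0.0504). ORP4L KI replicates 2, 3 and 4 exceeded every WT library, and ORP4L KI replicate 1 was below them.

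Of the 14 immediate-early genes, 0 were called or had an unadjusted p under 0.05 in edgeR, DESeq2 called 0, and the median log2 fold change was -0.037. The most abundant were the AP-1 subunits Junb (0.31 ± 0.343, SE), Jun (0.025 ± 0.353, SE) and Jund (0.16 ± 0.307, SE). Jun stood at 2770, 2960 and 2420 CPM in WT and at 1770, 1670, 3640 and 3980 CPM in ORP4L KI. ORP4L KI replicates 1 and 2 were below and replicates 3 and 4 above every WT library, and replicates 1 and 2 were also the ORP4L KI libraries with the lower Gadd45b.

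**Figure D4:**
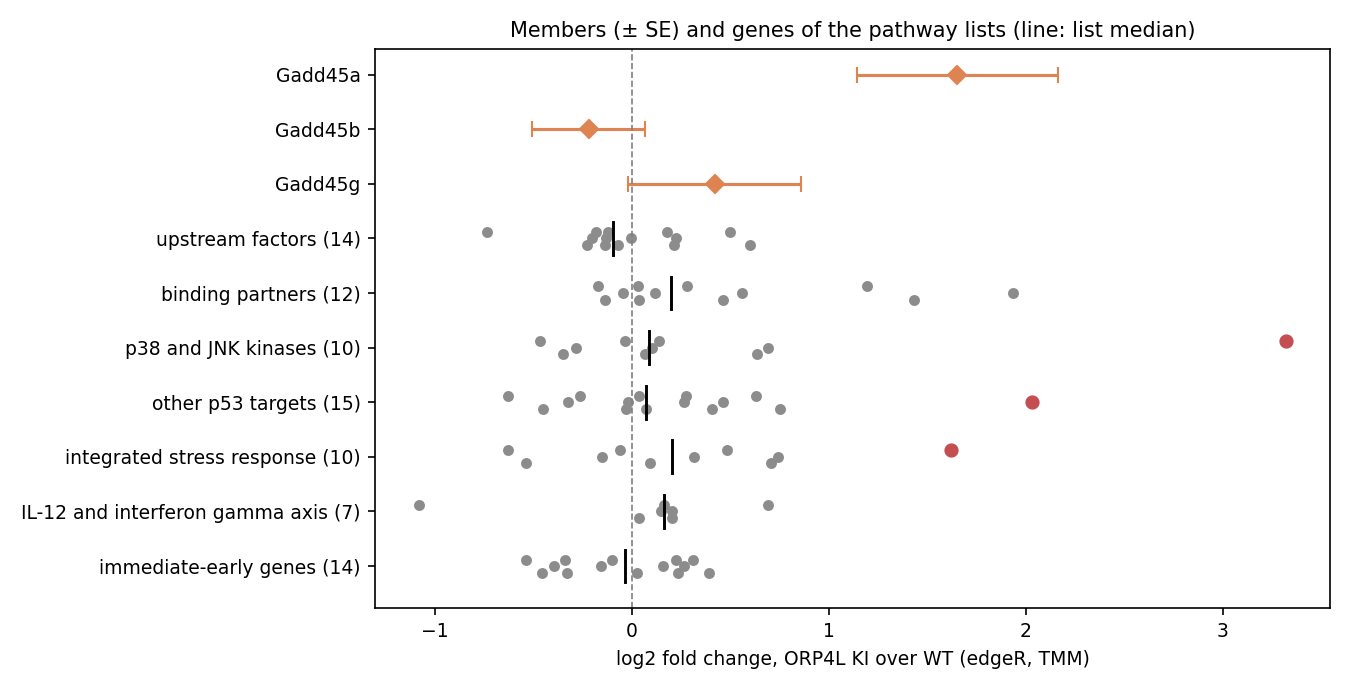
Log2 fold change of ORP4L KI over WT (horizontal axis) for the 3 Gadd45 genes with their SE, and for each tested gene of the 7 lists as a point, with the number tested in parentheses, a line at the list median and the called genes in red. The called genes are Mapk13 at 3.32, Perp at 2.03 and Asns at 1.62, and the list medians lie between -0.095 and 0.204.

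The genes whose patterns were most like each member were found by the mean absolute difference of log2 CPM, each centred on its own mean, over the 7 libraries. For Gadd45a these were Nfe2 (0.165), Ccno (0.170), Dgat2 (0.189), Acvrl1 (0.194) and Chil1 (0.199). Nfe2, a transcription factor of blood cells, was at 28.6, 51.4 and 21.6 CPM in WT. In ORP4L KI it was at 187, 32.1, 77.5 and 112 CPM, with replicate 2 in the WT range. The measure picks genes that rise and fall with the member, so shared highs and lows follow from the choice. Over the 4 ORP4L KI libraries alone the nearest genes were Pla1a (0.066), Jph3 (0.072), Cd14 (0.082), Slc22a20 (0.095) and Tshr (0.099). Cd14, a co-receptor of monocytes and granulocytes, was the 1 abundant gene of these, at 332, 832 and 311 CPM in WT and at 1030, 210, 544 and 899 CPM in ORP4L KI. Measured from Gadd45a, Gadd45g was the 532nd nearest gene over 7 libraries and Gadd45b the 5908th.

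For Gadd45b the nearest genes were 6430571L13Rik (0.085), Castor1 (0.095), Ier5 (0.103), Rgs10 (0.104) and Pdlim1 (0.112). Of these, 6430571L13Rik was low in every library, at 0.365 to 1.01 CPM. Ier5, an immediate-early gene, stood at 658, 912 and 610 CPM in WT and at 484, 465, 771 and 799 CPM in ORP4L KI. Its 2 lowest libraries were those of Gadd45b, which the choice by nearness favours. For Gadd45g the nearest genes were Id1 (0.147), Mmp2 (0.177), Cstb (0.181), Rab20 (0.185) and Lgals3 (0.186). Mmp2 was low in every library, at 0.329 to 1.99 CPM. Id1, an inhibitor of basic helix-loop-helix factors, was at 14.7, 27.9 and 13.3 CPM in WT. In ORP4L KI it was at 30.9, 10.8, 24.1 and 33.2 CPM, lowest in replicate 2 as Gadd45g was, which the choice also favours. The 3 lists of 5 had no gene in common.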

How the data were processed

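RNA was extracted with Trizol, and mRNA libraries were sequenced on an Illumina NovaSeq instrument. The authors trimmed adapters, discarded reads under 17 nt, mapped the rest to mouse mRNA sequences with FANSe3 and merged splice variants. They deposited raw counts per gene and RPKM, for which the authors used the longest transcript. The FANSe3 version, strand and handling of reads with several matches are not given in the sources used here.

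Samples were grouped by the genotype in their labels. All 7 libraries differed beyond sampling noise and were kept apart. The counts were fitted in R 4.3.3 with edgeR 4.0.16 (quasi-likelihood test, TMM, filterByExpr with a minimum count of 10), without covariates, over 13462 genes. The SE is the log2 fold change divided by the square root of F. RPKM served only for levels between genes and for shares. The exact sign-flip test was run on the log2 ratios between members, and the shares were not tested. Alternatives were other scalings and filters, DESeq2 1.42.0, the replicate number as a block, each library left out, thinning to 12918187 counts, and covariates. Scripts were tested on simulated data. Tables and plots used pandas 2.3.3, Matplotlib 3.10.9 and SciPy 1.17.1 under Python 3.11.15.

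The members and lists were chosen with earlier results of these data known. The genes named are the members, Osbp2, the called genes of each list or else its 3 most abundant, and the 5 nearest profiles of each member. The octamer, Foxo3, Trp53, Map3k4, Tdg, Cdk1, Ccnb1, Aurka, Mdm2, Cdkn1a, Ddit3 and Ppp1r15a were added after their values were seen. The other markers were the lists of B-cells (0 of 7 called), monocytes and macrophages (1 higher and 2 lower of 9), erythroid cells (0 of 7), dendritic cells (6 of 7 lower) and NK cells (4 of 7 lower). Over all tested genes, 2.38% were called higher and 2.3% lower. The NK-cell gene Eomes went the other way, with a log2 fold change of 1.588 and all ORP4L KI libraries above all WT libraries. By DESeq2, 1 erythroid gene was called lower and 1 NK-cell gene higher. At an unadjusted p under 0.05, edgeR had 0 B-cell genes and 1 erythroid gene.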

Additional observations from a re-analysis of the deposited data

Results flagged for a closer look

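In the 4 ORP4L KI libraries, 28 values (the levels of the Gadd45 genes and the named pathway genes, and the family shares) were searched for a library far from the other 3 by Dixon's ratio. Chance gives such a library in about 1 in 20 groups, and 4 were found. That rate cannot be set against these 4, since Cdk1, Ccnb1 and Aurka were named after their values were seen and all stood apart in the same library. No Gadd45 gene or family share was among them. Perp was lower in ORP4L KI replicate 3, at 5.399 CPM, than in the others, at 7.914 to 8.149 CPM. In ORP4L KI replicate 1, Cdk1 was at 102.1 CPM and at 18.4 to 31.17 CPM in the others, Ccnb1 at 44.86 CPM against 14.12 to 15.39 CPM, and Aurka at 34.88 CPM against 13.53 to 16.92 CPM. ORP4L KI replicate 1 also had the highest granulocyte share of counts, and the part of that share in these values was not tested.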

How the results depend on the processing

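Among the alternatives run, the granulocyte covariate moved Gadd45a and Gadd45g most, taking Gadd45a to -0.65 and Gadd45g to -1.17 in log2 fold change, and the cause was not tested. Under the others, Gadd45a lay between 1.29 and 2.0, Gadd45b between -0.42 and -0.018 and Gadd45g between 0.081 and 0.83. Leaving out each library gave 1.43 to 2.0 for Gadd45a, -0.41 to -0.018 for Gadd45b and 0.081 to 0.83 for Gadd45g. With a library left out, the mean log2 ratio was 1.48 to 1.72 for Gadd45b over Gadd45g, 1.03 to 1.31 for Gadd45a over Gadd45g and 0.19 to 0.69 for Gadd45b over Gadd45a. The exact p of the first was then the smallest that 6 libraries allow, so it says nothing about stability. Leave-one-out gave 328 (without WT replicate 2) to 805 (without ORP4L KI replicate 2) genes called by p and fold, against 630, and the granulocyte covariate gave 1449. Both covariates were added for counts and pathway genes after the data were seen. The 3 genes at an adjusted p under 0.05 became 113 with total counts alone, 44 with upper-quartile scaling, 176 with no filter, 763 with DESeq2, 367 with the granulocyte covariate, and 0 with the sex-linked covariate or with 10 counts asked in every library (1544 and 1549 at an unadjusted p under 0.05, edgeR). Leave-one-out gave 0 without WT replicate 1, 2 or 3 or ORP4L KI replicate 4 (1260 to 1759 at an unadjusted p under 0.05, edgeR), 1 (without ORP4L KI replicate 3) or up to 342 (without ORP4L KI replicate 2). The 3 pathway genes called became 6 with no filter, with DESeq2 and with the replicate block, 7 with the granulocyte covariate, and 1 to 6 with a library left out. At an adjusted p under 0.05, 0 pathway genes became 1 with no filter or the granulocyte covariate, 6 with DESeq2 and 0 to 2 with a library left out. The call of Asns was lost with upper-quartile scaling (1.53).

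Same-numbered libraries did not deviate together (correlations of 0.15, -0.53 and -0.0018). The mean correlation was -0.13 for same numbers and 0.058 for different numbers. The labels do not say whether same-numbered libraries share more than a number. With the replicate block over replicates 1 to 3, 48 genes passed the adjusted threshold, against 0 for the same 6 libraries without the block (1421 at an unadjusted p under 0.05, edgeR), and Gadd45a had a log2 fold change of 1.29. With the granulocyte covariate, the log2 fold change turned to 0.45 for Nfkb1, 0.26 for Foxo3, -0.040 for Pcna, -0.61 for Mapk13, -0.62 for Asns, -0.11 for Jun, -0.19 for Jund, -1.04 for Cdk1, -0.49 for Ccnb1, -0.35 for Aurka and -0.19 for Cdkn1a, and the cause was not tested. Npm1 was at -0.023 and Il18rap at -0.012 with total counts alone. Jun was at -0.12 with total counts alone, -0.029 with upper-quartile scaling, -0.31 with the replicate block and -0.21 in the same 6 libraries without it. Jund was at -0.063 with the replicate block and -0.033 without it. With a library left out, Il18rap ranged from -0.029 to 0.36, Jun from -0.21 to 0.19 and Jund from -0.033 to 0.28.

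With 1 library per mouse and 3 mice against 4, the spread of Gadd45a within ORP4L KI rather than the depth limits the precision, and the lowest count of Gadd45a in a library was 1196. Counting intervals would cover counting error only.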
